A study of Mus musculus with 8 samples.

Results

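The replication-dependent histone genes of the Hist1 cluster were taken as every gene symbol that starts with Hist1h in the deposited tables, with rows of the same symbol summed. This gave 54 of the 24717 symbols listed: 6 genes of the linker histone H1, 13 of H2A, 15 of H2B, 9 of H3 and 11 of H4. All 54 lie on mouse chromosome 13 between positions 21715711 and 23934913 of build GRCm38.p6. Hist1h2bq was listed only at E12, Hist1h2ap and Hist1h2br only at E17.5, and the other 51 at both.

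H2A, H2B, H3 and H4 form the protein core around which DNA is wound into nucleosomes, and H1 binds the DNA between them. Cells make these proteins mostly in S phase, when new DNA must be packed, from many gene copies that are switched on through Npat and read into short mRNAs. Most of these mRNAs end in a stem-loop bound by Slbp rather than in a poly(A) tail. In the embryonic brain the dividing cells are progenitors, and neurons have left the cell cycle.

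The RNA came from hypothalamus of mouse embryos of 3 stages (E17.5, E12.5 and E12.0), either wild-type or Foxd1-mutant, where Foxd1 encodes a forkhead transcription factor. Each genotype had 2 libraries at E17.5 and 1 at either early stage, each from RNA of pooled embryos. The labels call the mutant embryos Foxd1-null, name no allele, and word the control genotype unclearly. Foxd1 itself was between 1.96 and 30.3 FPKM in the wild-type libraries and between 0.230 and 2.77 in the mutant libraries, lower than wild-type at each stage. FPKM is a fragment count scaled to the length of the transcript and the size of the library, so levels of different genes are compared per length.

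Between 11572 and 13219 symbols per library reached 1 FPKM, and depth estimated from the steps of low values was 30.3 to 43.5 M fragments at E17.5. The same estimate was uncertain at E12, where it ran from 4.04 M in the wild-type E12.0 library to 56.2 M in wild-type E12.5. Whether libraries came from separate litters was not given, so p-values measure the spread between these libraries, and at E12 the agreement of the E12.0 and E12.5 differences. The 11 hypothalamus markers, such as Nkx2-1 and Rax, summed to between 144 and 236 FPKM at E12 and between 54.1 and 84.9 at E17.5. The 10 telencephalon markers summed to between 46.3 and 50.3 FPKM in 3 of the E17.5 libraries and to 108 in mutant replicate 2. How RNA was selected for the libraries, which matters for mRNAs without a poly(A) tail, is not given in the sources used here.

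The stem-loop at the 3′ end is the feature that sets these mRNAs apart. Its letters were searched on the transcript strand with any base allowed at 2 inner positions of each arm of the stem and at the last base of the loop. They occur in a transcript of 35 of the 54 members and in 72 of 21877 protein-coding genes in all (0.329%), of which 9 more are histone genes of other clusters. They begin 25 to 47 bases after the stop codon, with a median of 32. The 4 examples below, from GENCODE transcripts of build GRCm38, show the forms found, with the stem-loop in capitals.
Hist1h1e: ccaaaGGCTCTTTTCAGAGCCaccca
Hist1h3e: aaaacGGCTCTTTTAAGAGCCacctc
Hist1h4c: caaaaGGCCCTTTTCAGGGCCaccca
Hist1h4j: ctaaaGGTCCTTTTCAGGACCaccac
The first form was found in 20 members of H1, H2A, H2B and H3, and the second in 6, namely Hist1h1t, Hist1h2bb, Hist1h2bk, Hist1h3c, Hist1h3e and Hist1h3f. The H4 genes had other stems: the third form in 6 of them, the fourth in Hist1h4b and Hist1h4j, and a variant of the third in Hist1h4i. For the other 19 members the annotated transcripts do not hold these letters, and many of those models stop at the end of the coding sequence.

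The genes are near copies of each other, which limits what a single value can say. Of all 100-base stretches of a member's transcripts, the share found in no other gene had a median of 64.3% over the 54 members. It was 99.6% for H1, 68.2% for H4, 62.9% for H3, 59.9% for H2B and 23.8% for H2A. Coding sequences were identical for Hist1h2ao and Hist1h2ap, for Hist1h2bq and Hist1h2br, and for Hist1h4m and Hist1h4n. Reads from such copies can be shared out between genes, so sums over each class are given beside single genes.

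Hist1h genes were abundant at the early stages and several times lower at E17.5. Together they made up between 4.54% and 6.40% of all FPKM in the 4 E12 libraries and between 0.701% and 0.849% in the 4 E17.5 libraries. The sum over members at E12.0 was 22532 FPKM (wild-type) and 26993 (mutant). The pair of E12.5 libraries held 25560 and 25455 FPKM in the same order. The wild-type libraries of E17.5 held 3916 and 3610 FPKM and those of the mutant 3494 and 3915. The mean at E12 was thus 6.73 times that at E17.5. The tables of the early and late stages were made separately, so this ratio is a description with no test.

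**Figure D1:**
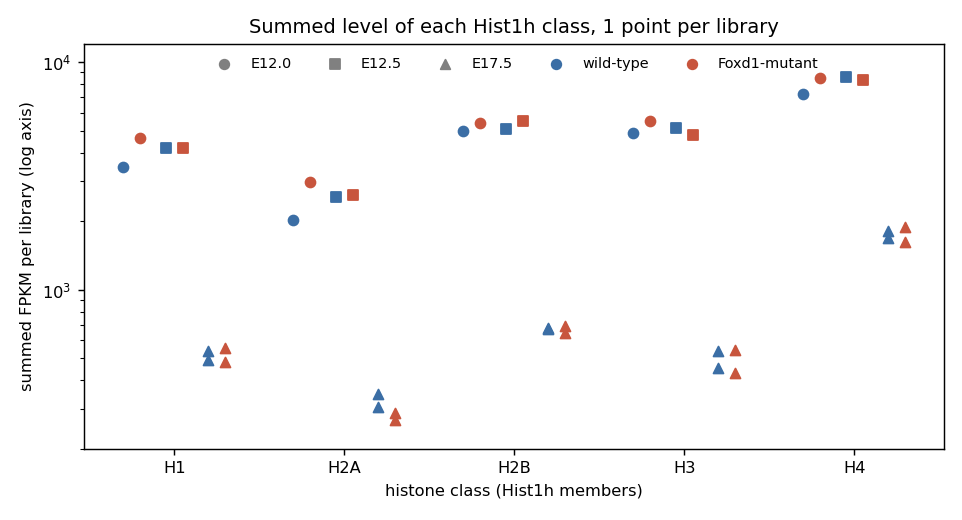
Summed FPKM of the Hist1h members of each histone class in each of the 8 libraries, on a log axis. Circles are E12.0, squares E12.5 and triangles E17.5, with wild-type in blue and Foxd1-mutant in red. Every class is lower in all 4 E17.5 libraries than in all 4 E12 libraries, and only for H2A do the 2 mutant triangles both lie below the 2 wild-type triangles.

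The classes differed in how far E12 stood above E17.5. The ratio of class sums was 10.3 for H3, 8.39 for H2A, 8.01 for H1, 7.81 for H2B and 4.66 for H4. As a result the share of H4 in all member FPKM was 31.5% to 33.7% at E12 and 46.4% to 48.1% at E17.5. Of the 5 H4 genes below a ratio of 5, 4 were also the 4 most abundant H4 genes at E17.5.

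Among single members at 1 FPKM or more at both stages, 46 of 47 had all 4 E12 values above all 4 E17.5 values (97.9%), as had 18.1% of all 11339 genes at these levels. The ratio of means had a median of 8.57 over the members and 0.860 over those genes. Hist1h4c was lowest at 3.05. Its FPKM was 629, 1434, 759 and 1104 at E12, in the order wild-type E12.0, mutant E12.0, wild-type E12.5, mutant E12.5. The wild-type libraries of E17.5 had 337 and 320 FPKM and the mutant ones 294 and 338. Hist1h4j (3.52), Hist1h4d (3.77), Hist1h4h (4.14) and Hist1h4k (4.59) followed, so the 5 lowest ratios were all of H4. Hist1h2bp (16.7), Hist1h3g (16.0) and Hist1h3c (13.9) were at the other end. Left out by the limit of 1 FPKM were Hist1h2ao, at 4.14 to 9.60 FPKM at E12, and Hist1h4n, at 2.04 to 5.19. Neither exceeded 8e-06 FPKM at E17.5. Whether the separate early and late tables divided reads of near copies alike was not tested. The ratio had a median of 7.97 in 15 members with over 100 annotated bases after the stem-loop, 9.67 in 16 with fewer, and 8.54 in 16 without the letters. The ranges of these 3 groups overlapped widely, at 3.05 to 12.4, 4.14 to 16.7 and 4.59 to 16.0.

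**Figure D2:**
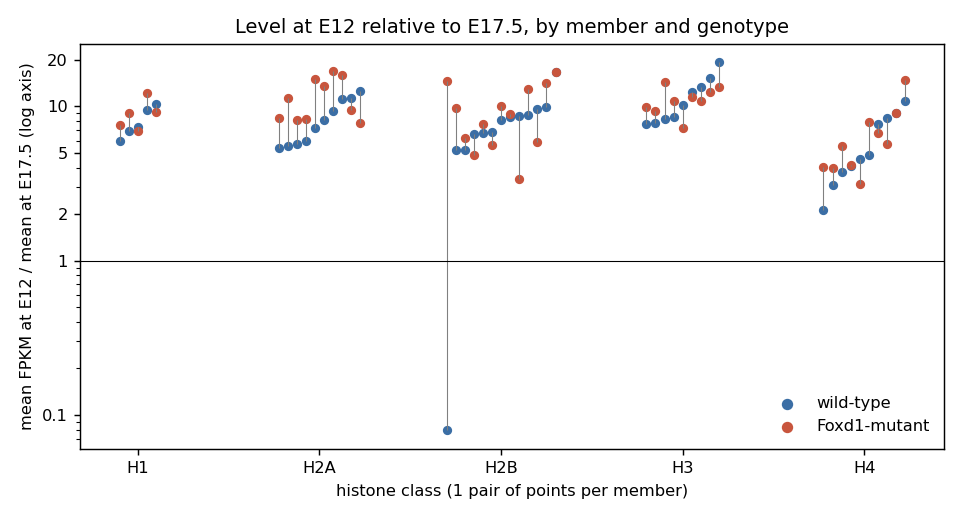
Mean FPKM at E12 divided by mean FPKM at E17.5 for each Hist1h member of at least 1 FPKM at both stages, on a log axis, with wild-type in blue, Foxd1-mutant in red and a line joining the 2 values of a member. The only value below 1 is that of Hist1h2ba in wild-type, at 0.0790.

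The most abundant members by mean over the 8 libraries were spread over the classes. Hist1h4h, at 1210 to 1815 FPKM at E12 and 336 to 425 at E17.5, and Hist1h4d, at 1462 to 1753 and 362 to 589.5, led H4. Hist1h3e led H3 at 1191 to 1635 and 127 to 193 FPKM, ahead of Hist1h3i and Hist1h3c. Hist1h1e led H1 at 1011 to 1372 and 175 to 197 FPKM, ahead of Hist1h1c and Hist1h1d. In H2B the leading genes were Hist1h2bm, Hist1h2bb and Hist1h2be, and in H2A Hist1h2ak, Hist1h2ab and Hist1h2ai. Hist1h2ak, the highest H2A gene, was at 567 to 793 FPKM at E12 and 87.2 to 106 at E17.5. As a class H2A had the lowest sum in every library, from 2014 to 2965 FPKM at E12. It was also the class with the least sequence of its own, at a median of 23.8% of stretches. The part of shared reads in its low sum was not tested.

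Both Hist1h1t and Hist1h2aa, genes known from testis, were near 0. Hist1h1t, the H1 form of male germ cells, was between 0.130 and 0.868 FPKM in all 8 libraries. Hist1h2aa was listed at 0 in 7 libraries and at 0.0714 in wild-type E12.5. The third gene of this kind, Hist1h2ba, behaved differently.

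Hist1h2ba encodes a form of H2B best known from developing sperm, where it takes the place of other H2B. The early wild-type libraries held 1.01 (E12.0) and 1.74 (E12.5) FPKM, and the early mutant libraries 176 and 204. The late wild-type libraries held 21.2 and 13.6 FPKM, and the late mutant libraries 18.1 and 7.69. The 2 early mutant libraries stood far above the 2 early wild-type libraries, while the genotypes overlapped at E17.5. The early wild-type values were also below all E17.5 values, the reverse of every other member of at least 1 FPKM at both stages.

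In the limma fit of the 4 E12 libraries with stage as a block, Hist1h2ba rose in the mutant by 6.34 on the scale of log2(FPKM + 1) (SE 0.131, adjusted p = 0.000984), with the mutant higher in 2 of 2 stages. It was the only one of 49 members tested that passed the adjusted threshold of 0.05, against 4 of 11952 genes (0.0335%). Without the wild-type E12.0 library, the mutant E12.0 library or both, only the E12.5 pair informs this difference. Those settings repeat the same contrast, with a log2 difference of 6.23, and Hist1h2ba did not pass the adjusted threshold in any of them. Over the other alternatives the adjusted p lay between 2.65e-57 and 0.0126. At E17.5 the log2 difference was -0.48 (SE 0.389, adjusted p = 0.712). The difference between the stages, tested in all 8 libraries, was -6.82 (SE 0.538, adjusted p = 0.0466), against 4 of 12519 genes called (0.032%). That call was lost under 13 of the 18 alternatives, including with each E17.5 library left out in turn, at adjusted p between 0.0537 and 0.233.

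Of the 100-base stretches of the Hist1h2ba coding sequence, 72.6% occur in no other gene. That comparison used transcripts of GRCm38, while the FPKM values were made on mm9. The 7 male germ cell markers, Dazl and Ddx4 among them, summed to between 0.219 and 0.514 FPKM at E12 and between 1.52 and 2.19 at E17.5, and 4 of them were at 0 in every E12 library. Hist1h2aa, whose start lies 281 bases away on the other strand, was at 0 in both early mutant libraries. Hist1h2ba made up 176 of the 5382 FPKM of H2B in mutant E12.0. The cause of its values in the early mutant libraries was not tested.

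**Figure D3:**
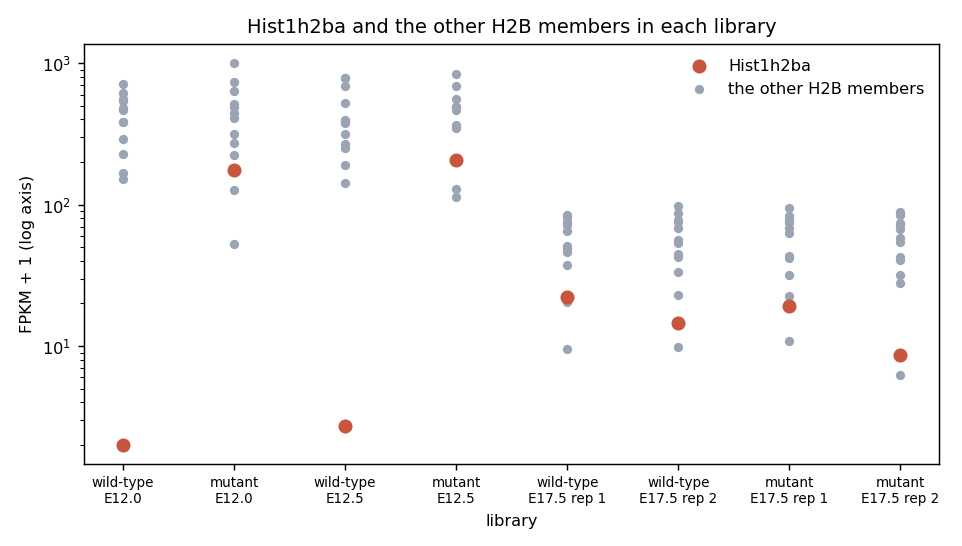
FPKM + 1 of Hist1h2ba (red) and of the other H2B members of at least 1 FPKM at E12 (grey) in each library, on a log axis. In both early wild-type libraries Hist1h2ba lies below all others, at 1.01 and 1.74 FPKM. In the mutant libraries of these stages it lies among the lower of them, at 176 and 204 FPKM.

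The promoter of Hist1h2ba is shown with that of Hist1h2bb, an abundant H2B gene whose values went the other way at E12. Each line holds the 250 bases before the RefSeq start on build GRCm38.p6, read along the gene, at chr13:23934157-23934406 on the minus strand for Hist1h2ba and chr13:23746484-23746733 on the plus strand for Hist1h2bb. Capitals mark 4 motifs on either strand: the octamer ATTTGCAT, the TATA box searched as TATAAA, the CCAAT box, and the H1 box searched as AAACACA.
Hist1h2ba: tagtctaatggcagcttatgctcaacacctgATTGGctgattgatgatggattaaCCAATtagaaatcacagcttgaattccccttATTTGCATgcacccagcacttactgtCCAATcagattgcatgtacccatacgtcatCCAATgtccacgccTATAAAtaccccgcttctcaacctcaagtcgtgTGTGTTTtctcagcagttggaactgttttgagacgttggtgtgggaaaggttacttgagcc
Hist1h2bb: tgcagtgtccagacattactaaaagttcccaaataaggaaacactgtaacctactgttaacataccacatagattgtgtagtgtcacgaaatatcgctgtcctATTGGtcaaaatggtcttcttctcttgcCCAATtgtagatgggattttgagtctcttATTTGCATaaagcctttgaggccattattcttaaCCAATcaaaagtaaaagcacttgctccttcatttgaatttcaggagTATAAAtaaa
Both hold the octamer, CCAAT and TATAAA, and only the Hist1h2ba window holds AAACACA. In the 300-base windows around the start (250 before, 50 after) of the 51 members with an entry, the octamer was found in 11, all of H2A (5 of 13) or H2B (6 of 14), against 1.74% of all 32851 windows. CCAAT was in 43 of 51, in every H1, H2A, H2B and H3 window but in 3 of 11 H4 windows, against 37.4% of all. TATAAA was in 31 of 51 (13.6% of all) and AAACACA in 9, of which 5 were among the 6 H1 genes (7.18% of all). The windows of 10 H2A and H2B pairs that start back to back, 164 to 281 bases apart, overlap and share motifs.

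Aside from Hist1h2ba, the comparison of genotypes at E12 called no member, with a next smallest adjusted p of 0.976. Of 49 members tested, 29 had a positive and 20 a negative log2 difference, with a median of 0.17 against 0.01 over all 11952 genes. The mutant was above wild-type in both early stages for 22 members (44.9%), as for 25.9% of all genes tested, and below at both for 14 (28.6%), as for 21.8%. Without the filter on low values the median over 52 members was 0.16. At an unadjusted p under 0.05 there were 10 members, 5 in each direction, against 1.41% of all genes (0.602% higher and 0.803% lower).

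For every class but H2B the sums differed more between genotypes at E12.0 than at E12.5. The mutant to wild-type ratio of summed FPKM at E12.0 was 1.47 for H2A, 1.34 for H1, 1.18 for H4, 1.13 for H3 and 1.08 for H2B. At E12.5 it was 1.02, 1.004, 0.967, 0.935 and 1.09 in the same order. The H2A ratio thus stood well above 1 at E12.0 alone. The hypothalamus markers summed to 144 FPKM in mutant E12.0 and to between 202 and 236 in the other 3 early libraries. The telencephalon markers summed to 86.2 FPKM in wild-type E12.0 and to between 59.1 and 65.7 in the other 3 early libraries. The part of either marker set in these ratios was not tested. With both E12.0 libraries left out of a fit of all stages, the median of the members was 0.03, and 5 of 11 H2A members were positive instead of 9 of 11. With a library of E12.5 left out instead, so that E12.0 decides, 21 members passed the adjusted threshold, 17 higher and 4 lower, among 2276 or 2414 genes called. Of all genes, 7.81% were called higher and 10.3% lower without the mutant library, and 8.39% and 10.9% without the wild-type one. In those fits the lone early libraries are assumed to vary like those of E17.5.

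Some H2A genes show the same split, though not Hist1h2af, whose mutant to wild-type ratio was 0.678 for E12.0 and 0.732 for E12.5, Hist1h2ae (0.902 and 0.637) or Hist1h2ai (1.07 and 1.19). Hist1h2an had the largest positive log2 difference among members not called, 1.14 (SE 0.421, adjusted p = 0.976). Wild-type and mutant had 41.0 and 170 FPKM on E12.0, then 137 and 164 on E12.5, so that wild-type E12.0 stood apart from the other 3. Hist1h2ag had 84.8 and 209 FPKM, then 138 and 165, a log2 difference of 0.77. In H1, Hist1h1c had 661 and 1044 FPKM, then 969 and 1007. Of these, Hist1h1c is the one whose sequence is mostly its own, at 94.9% of stretches against 16.7% for Hist1h2an and 23.8% for Hist1h2ag.

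Hist1h4c was the H4 gene with the largest difference at E12, with 629 and 1434 FPKM, then 759 and 1104 (log2 difference 0.86, adjusted p = 0.976). Both mutant values lay above both wild-type values. Other H4 genes went the other way: Hist1h4b had 412 and 309 FPKM, then 401 and 237 (log2 difference -0.58). Over H4, 4 members were positive and 7 negative.

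In H2B, differences of single members ran in opposite directions and were larger than that of their sum. In the order used above, Hist1h2bf had 166 and 51.3 FPKM, then 188.5 and 113 (log2 difference -1.20, adjusted p = 0.976). Hist1h2bb had 716 and 487 FPKM, then 784 and 479 (log2 difference -0.63). Hist1h2bj went the other way with 226 and 443 FPKM, then 249 and 353 (log2 difference 0.73). For Hist1h2bl the direction turned between stages, from 558 and 223 FPKM to 314 and 688. The H2B sum over the same libraries was 4970, 5382, 5085 and 5521 FPKM. The share of stretches found in no other gene was 53.6% for Hist1h2bf, 59.9% for Hist1h2bj, 67.2% for Hist1h2bb and 37.9% for Hist1h2bl. In H3, Hist1h3f was the lowest, with 376 and 256 FPKM, then 402.5 and 211 (log2 difference -0.74).

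**Figure D4:**
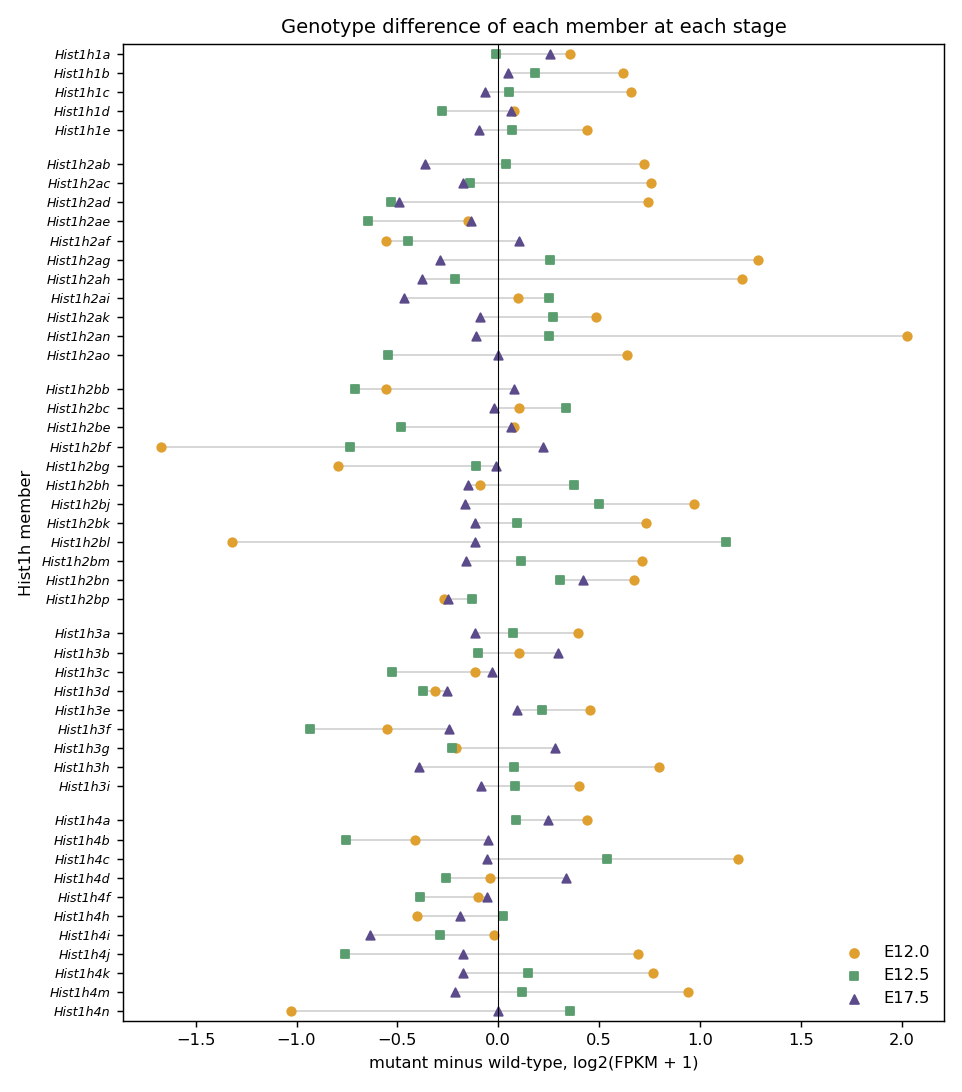
Log2(FPKM + 1) of mutant minus wild-type for each Hist1h member whose mean over the 8 libraries reached 1 FPKM, at E12.0 (circles), E12.5 (squares) and E17.5 (triangles, difference of means of 2 libraries per genotype). Hist1h2ba, at 6.34 for E12, is left off. The circles spread most, from Hist1h2bf to Hist1h2an, and 9 of the 10 H2A triangles of tested members lie left of 0.

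The spread of the E12.0 differences was wider in members with less sequence of their own. Where at most 50% of stretches were unique (18 members) the median size of the log2 difference at E12.0 was 0.74, and above 50% (31 members) it was 0.44. At E12.5 the medians were 0.25 and 0.28, and at E17.5 they were 0.19 and 0.15. The part of shared reads, and of the low estimated depth of the wild-type E12.0 library, in these differences was not tested.

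At E17.5, with 2 libraries per genotype, most members were slightly lower in the mutant and none passed the adjusted threshold. Of 47 members tested, 34 had a negative and 13 a positive log2 difference, and the median was -0.11 against 0.00 over all 13235 genes. It was -0.05 without mutant replicate 1, -0.06 without wild-type replicate 1 and -0.19 without wild-type replicate 2. Positive differences made up 27.7% of members and 51.0% of all genes. Both mutant libraries lay below both wild-type libraries for 16 members (34.0%), as for 22.2% of all genes, and above for Hist1h2bn alone (2.13%), as for 20.9%. Of all genes 1 was called (0.00756%), and the smallest adjusted p of a member was 0.689. At an unadjusted p under 0.05 there were 6 members, all lower, against 5.7% of all genes in either direction and 3.52% lower.

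H2A had the most one-sided values at E17.5. Its sums were 348 and 305 FPKM (wild-type) and 268 and 287 FPKM (mutant), or 326 ± 30.6 against 278 ± 13.5 (mean ± SD, n = 2 per genotype), a ratio of 0.851. Both mutant sums lay below both wild-type sums. For 7 of the 10 H2A members tested both mutant libraries lay below both wild-type libraries, as for 22.2% of all genes. The log2 difference was negative for 9 of 10, also after quantile normalization and after small RNA genes were left out. Since these genes share much of their sequence, they are not separate observations. With each library left out in turn, the log2 ratio of the H2A sum ran from -0.32 to -0.13. Hist1h2ad had 9.87 and 9.89 FPKM against 7.59 and 5.97 in the mutant (log2 difference -0.49, SE 0.108, adjusted p = 0.689). Hist1h2ai had 64.6 and 55.5 FPKM against 38.9 and 47.5 (log2 difference -0.47), and Hist1h2ah 14.8 and 12.7 against 10.6 and 10.1 (-0.38). Each is an H2A gene with little sequence of its own, at 36.4%, 11.6% and 10.5% of stretches. The hypothalamus markers also summed to less in both mutant libraries, 66.4 and 54.1 FPKM against 84.9 and 75.8, with 10 of 11 log2 differences negative. All 10 of the telencephalon markers were positive. Their sums were 50.3 FPKM in mutant replicate 1 and 108 in mutant replicate 2, against 47.7 and 46.3 in wild-type. In mutant replicate 1, Emx1, Neurod2, Lhx2 and Bcl11b lay below both wild-type libraries, Neurod6 between them and the remaining markers above both. The part of either marker set in the H2A values was not tested.

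The other class sums overlapped between genotypes at E17.5. With wild-type first, H1 was at 514 ± 32.6 and 517 ± 53.1 FPKM, H2B at 673 ± 3.48 and 669 ± 33.3, H3 at 494 ± 59.6 and 488 ± 81.8, and H4 at 1755 ± 89.7 and 1753 ± 182 (mean ± SD, n = 2). Among the 5 H1 genes tested 3 were positive and 2 negative, from -0.10 for Hist1h1e to 0.26 for Hist1h1a. Hist1h3h had 41.9 and 33.3 FPKM against 32.0 and 24.8 in the mutant (log2 difference -0.40, adjusted p = 0.689). Hist1h2bn, the one gene higher in both mutant libraries, had 45.5 and 52.5 FPKM against 81.4 and 53.1, so the mutant libraries differed from each other more than the second of them differed from wild-type.

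Mutant replicate 2 stood apart for several members. Hist1h4d was at 589.5 FPKM there and between 362 and 368 in the other 3 E17.5 libraries, and Hist1h1a at 96.2 against 63.6 to 69.3. Hist1h4a was at 117 against 75.8 to 83.6, while Hist1h4i was at 23.1 against 39.0 to 61.7. Without this library 39 of 47 members were negative, among them all 10 tested genes of H4, of which 8 were negative with it. With mutant replicate 1 left out instead, 29 were negative and Hist1h4d passed the adjusted threshold, higher in the mutant, as did 0.121% of all genes. The telencephalon markers were also highest in mutant replicate 2, and their part in these values was not tested.

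Of the 49 members tested in all 8 libraries, 9 (18.4%) were higher in the mutant at both early stages and lower in both mutant libraries at E17.5: Hist1h1e, Hist1h2ab, Hist1h2ag, Hist1h2ai, Hist1h2bj, Hist1h2bk, Hist1h3h, Hist1h4k and Hist1h4m. The same pattern held for 4.87% of all 12519 genes tested. It combines the shares already given for E12 and for E17.5, and near copies are not separate observations. Among these 9 members the mutant to wild-type ratio at E12.0 ran from 1.07 (Hist1h2ai) to 2.46 (Hist1h2ag). At E12.5 it ran from 1.03 (Hist1h2ab) to 1.42 (Hist1h2bj), again with 1 library per genotype. At E17.5 it ran from 0.72 (Hist1h2ai) to 0.93 (Hist1h1e). Hist1h2bn was higher throughout, as were 5.74% of all genes, and Hist1h2ae lower throughout, as were 5.89%. In the test of the difference between stages 31 of 49 members had a negative value, with a median of -0.24 against 0.00 over all genes, and 14 were at an unadjusted p under 0.05 against 3.95% of all genes. For H2A the median was -0.60, with 9 of 11 negative. Without both E12.0 libraries the median of all members was -0.12 and that of H2A -0.16. Without the mutant E12.5 library 15 members were called lower and 2 higher, against 3.53% and 6.11% of all genes. Without the wild-type E12.5 library they were 15 and 3, against 4.61% and 7.07%. Over all stages together no member and no gene was called by limma (0% of 12519), 4 members and 695 genes (5.55%) were at an unadjusted p under 0.05, and the median of the members was 0.03, with 28 of 49 positive. Without either E12.0 library it was -0.07, with 17 of 49 positive, and without wild-type replicate 1 of E17.5 it was 0.13.

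Most genes of the cell cycle had differences of the opposite sign at E17.5, though whether they differ from the members was not tested. Of 25 tested genes of S phase and DNA replication, such as Mcm2 and Pcna, 22 had positive log2 differences (median 0.11), and of 17 genes of G2 and mitosis, such as Mki67 and Top2a, all 17 did (median 0.21). None passed the adjusted threshold. These sums were highest in mutant replicate 2, at 322 FPKM for S phase against 275 to 283 in the other 3 libraries and 120 for G2 and mitosis against 84.7 to 91.8. Without that library 14 of 25 and 15 of 17 were positive. At E12 the counts were 25 of 27 and 17 of 17, with medians of 0.16 and 0.22, again with none called. With both E12.0 libraries left out they were 27 of 27 and 17 of 17.

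Histone genes outside the cluster had the same signs as most members. At E17.5, 8 of 10 tested were negative (median -0.11), and at E12, 10 of 11 were positive (median 0.17), none of them called. Hist3h2ba had 413 and 404 FPKM at E17.5 against 370 and 293.5 in the mutant (log2 difference -0.31, adjusted p = 0.689). Hist2h2ab, the largest at E12 with a log2 difference of 0.39, had 53.6 and 67.5 FPKM, then 57.8 and 79.3. Replacement histone genes, which are made outside S phase too, had 5 of 11 positive at E17.5 and 9 of 11 at E12. H2afz, for H2A.Z, had 193 and 185 FPKM at E17.5 against 175 and 160.5 (log2 difference -0.17).

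Genes of histone mRNA synthesis had small differences between genotypes. Slbp had 32.0 and 32.4 FPKM at E17.5 against 31.3 in both mutant libraries (log2 difference -0.04). At E12 it had 36.8 and 44.9 FPKM, then 44.4 and 49.5 (log2 difference 0.22). At E17.5 the log2 difference was 0.09 for Npat, 0.13 for its partner Casp8ap2 and 0.05 for the H4 gene activator Hinfp. At E12 it was -0.04, 0.15 and 0.13, and no gene of this list passed the adjusted threshold at either stage. Of the 18 tested, 13 were positive at E17.5 and 15 at E12. Among the 17 histone chaperones, which carry histones to DNA, 12 were positive at each stage.

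Across stages these lists differed from the members. The ratio of the E12 to the E17.5 sum was 6.73 for the Hist1h members, 5.05 for G2 and mitosis and 2.77 for histone genes outside the cluster. It was 2.67 for S phase, 1.77 for replacement histones, 1.26 for chaperones and 1.05 for histone mRNA synthesis. Such sums follow the most abundant genes, and single S phase genes ran from 0.881 (Dnmt1) to 6.86 (Uhrf1). Single replacement histone genes ran from 1.07 (H2afy2) to 7.97 (Cenpa), with H1fx at 7.41 and H2afx at 6.41. Single chaperone genes ran from 0.496 (Atrx) to 4.88 (Asf1b). The sum outside the cluster took in 11 symbols at E12 and 14 at E17.5. Single genes of histone mRNA synthesis ran from 0.346 (Lsm11) to 3.51 (Cdk2), with Slbp at 1.38 and Npat at 1.17. Neuron markers were lower at E12, with a ratio of 0.489, and progenitor markers had one of 0.889. Of the 10 progenitor genes, Fabp7 (0.271) and Slc1a3 (0.131) were lower at E12 and the other 8 higher, from 2.35 to 5.91. In whole tissue, fewer cells of a type and less RNA per cell cannot be told apart, for this ratio and for the genotype differences above.

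**Figure D5:**
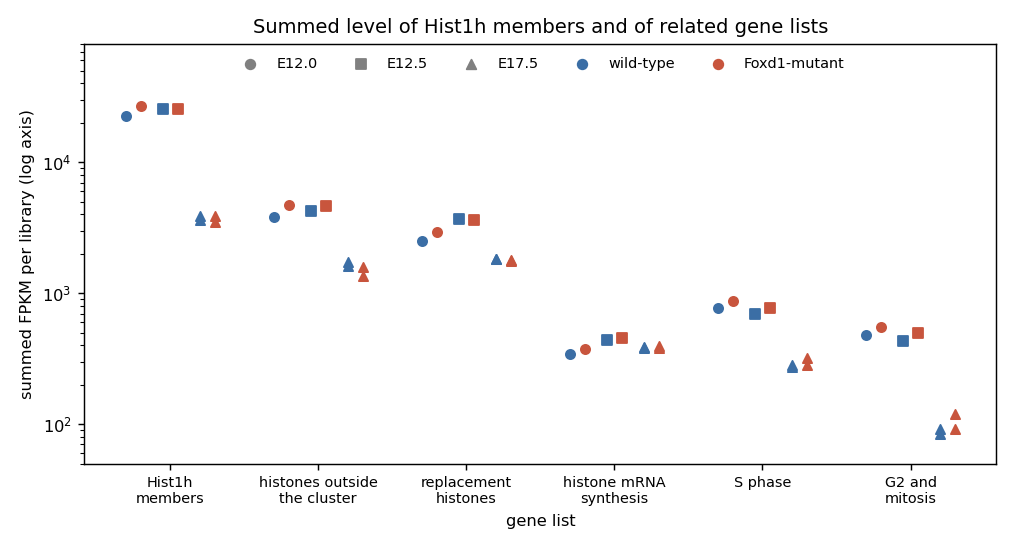
Summed FPKM of the Hist1h members and of 5 related gene lists in each library, on a log axis, with circles for E12.0, squares for E12.5, triangles for E17.5, blue for wild-type and red for Foxd1-mutant. The step from E12 to E17.5 is steepest for the Hist1h members (6.73). It is close to none for the sum of histone mRNA synthesis genes (1.05), whose single genes ran from 0.346 to 3.51.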

How the data were processed

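RNA from 8 pooled hypothalamus samples was sequenced with paired ends over 100 cycles. FPKM values were made by the authors with TopHat and Cufflinks on mouse build mm9, per the submitters' processing notes, with versions not given in the sources used here. The deposited tables list 23737 gene rows at E12 and 32952 transcript rows at E17.5. Rows without a gene name (8 per E12 table, at most 0.0360% of FPKM) were left out of the tests, and rows sharing a symbol were summed.

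Tests used limma 3.58.1 in R 4.3.3 with a variance trend, on log2(FPKM + 1), a scale that understates the change of low genes, for genes whose mean in the libraries fitted reached 1 FPKM. P was two-sided and adjusted by Benjamini and Hochberg over all genes tested, with a threshold of 0.05. The 4 comparisons were genotype at E17.5, at E12 and over all stages, the latter 2 with a stage block, and how this effect differed between E17.5 and E12. E12.0 and E12.5 were not tested alone, having 1 library per genotype. No test was run on class sums. The scripts were tested on simulated data.

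Members were matched by RefSeq accession, and sequences come from RefSeq and GENCODE tables of GRCm38. The members and gene lists were chosen with earlier results of these data known. Named members are the 3 most abundant per class, any called, the 4 largest non-overlapping differences per direction at E17.5 and E12, the H1 genes and the testis genes. Hist1h2bj, Hist1h2bl, Hist1h4a, Hist1h4i, Hist1h4j and others named by a count or ratio were chosen after their values were seen. Sex-linked genes are not reported. Python 3.11.15 and pandas 2.3.3 were also used. The alternatives tried are given in the closing section.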

Additional observations from a re-analysis of the deposited data

Results flagged for a closer look

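The genotype difference of Hist1h2ba was not the same at E17.5 and at E12. The test of the difference between the stages gave -6.82 on the log2(FPKM + 1) scale (limma adjusted p = 0.0466). The mutant was higher in both early stages, at 176 and 204 FPKM against 1.01 and 1.74, and overlapped wild-type at E17.5. With each library of E17.5 left out in turn the value lay between -7.39 and -6.26, and the call was lost.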

How the results depend on the processing

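Alternatives changed the pseudocount, the filter, the scaling, the variance trend, the joining of rows, the blocks and the libraries used. The 12 counts of non-overlapping members under other scalings stayed within 1.5 times of the reported values. With each library left out, the members' median ran from -0.19 to -0.05 at E17.5, 0.04 to 0.40 at E12, -0.07 to 0.13 over all stages and -0.37 to -0.11 for the difference between stages. The log2 ratio of the sum over members at E17.5 ran from -0.11 to 0.06, and the H2A median at E12 was -0.14 without either E12.0 library, against 0.31. Leaving out both E12.0 libraries, and Hist1h2ba from the sums, was chosen after seeing the data.

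At E17.5 the count of genes called was 0 with no filter and 0 with a filter at 5 FPKM, and 1 to 44 with each library left out. The members called were then 0 to 1. Same-numbered replicates at E17.5 deviated with a correlation of 0.028 across genes, which cannot show whether they shared a litter or preparation. With a replicate block 16 genes and 1 member (Hist1h4i, lower) were called at E17.5, 0 of each over all stages, and 1 gene and 1 member (Hist1h2ba) for the difference between stages.

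At E12 the count of genes called was 1 with a pseudocount of 5, with no filter, with quantile normalization or with no trend, 78 with no stage block, and 51 without the E12.0 pair. It was 49 to 2414 with each library left out. The members called were 0 without both E12.0 libraries and 0 to 21 with each library left out.

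For the difference between stages the count of genes was 1 with a pseudocount of 0.1 or 5 or quantile normalization, 0 with no filter or a filter at 5 FPKM, 48 without both E12.0 libraries, and 0 to 1465 with each library left out. The members called were 0 under each of these settings and with no trend, and 0 to 18 with each library left out. Over all stages the counts stayed at 0. Calls on Hist1h2ba were lost under 16 settings, 3 at E12 and 13 for the difference, and Hist1h2an, Hist1h2ag, Hist1h2bf and Hist1h4c gained one at E12 without either library of E12.5. The 3 losses at E12 all rest on the same contrast of the E12.5 pair. The cause of these shifts was not tested.

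The log2 ratio of the H2B sum at E12 was 0.12 as reported, 0.0245 after quantile normalization, 0.0684 with small RNA genes left out, 0.0634 without the highest member and 0.0660 without Hist1h2ba. With small RNA genes left out the log2 ratio of E12 to E17.5 was 2.90 over all members and 3.11 for H2B. Depth at E12 was estimated with little certainty.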
